A study of Homo sapiens with 6 samples.

Results

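The last 370 nucleotides of human 28S rRNA, A4701 to C5070, were followed in HEK293T/17 cells, an established human embryonic kidney line. They were chosen by position alone from the deposited 28S tables and make up 370 of the 6939 positions of 18S and 28S rRNA. A position entered a comparison when at least 100 reads crossed it in both libraries compared, which kept 369 of the 370. C5070, the last nucleotide, had 0 crossing reads and was left out, while the shallowest position kept, U5069, had 862 in its shallowest library. Positions are counted from 1 at the 5′ end of the deposited 28S sequence, and no genome build applies.

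Fragments of total RNA longer than 200 nt were treated with CMC or mock-treated and then copied in 1 of 3 ways. The enzyme was HIV reverse transcriptase (HIV RT) with magnesium, or SuperScript III, an engineered retroviral enzyme, with manganese or with magnesium. Every combination of treatment and copying condition was 1 library, 6 in all, from 1 cell line. The HIV RT tables carry another name than those of SuperScript III, so a difference between the enzymes and one in processing cannot be told apart. No difference below has a replicate check, and a call compares 2 libraries, not 2 treatments.

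28S rRNA is the main RNA of the large ribosomal subunit. Its 3′ part holds expansion segment 39, one of the very G+C-rich insertions that make mammalian 28S longer than its yeast or bacterial counterparts, and then the strands that close the molecule near its end. Pseudouridine (Ψ) is an isomer of uridine in which the base is joined to the sugar through carbon instead of nitrogen, and in rRNA it is made by guide RNAs of the H/ACA class with the enzyme dyskerin. CMC, a carbodiimide, attaches a bulky adduct to uridine, guanosine and Ψ, and the adduct on Ψ is the most stable, so a reverse transcriptase meeting it may stop or may pass and insert another base.

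Ψ4972, Ψ5001 and Ψ5010 are the listed sites of this stretch. All 3 fell on a U of the deposited sequence. The stretch from 4960 to 5022 and the surroundings of each site are shown because they hold the listed sites, among them the largest stop rise of the region in each condition. Capitals mark the listed Ψ, and each sequence runs 5′ to 3′.
28S 4960 to 5022: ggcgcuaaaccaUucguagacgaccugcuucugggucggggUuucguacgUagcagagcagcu
28S 4962 to 4982: cgcuaaaccaUucguagacga
28S 4991 to 5011: ugggucggggUuucguacgua
28S 5000 to 5020: guuucguacgUagcagagcag
Ψ5010 is the U of a GUA triplet, and an unlisted U, U5006, is in the same triplet 4 nt upstream. Both U are in capitals here.
28S 4998 to 5018: ggguuucgUacgUagcagagc

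The region was richer in C and poorer in U than the 2 rRNAs together. It held 141 C, 127 G, 53 U and 49 A. G and C made up 72.4% of it, against 65.8% of all positions, and U made up 14.3%, against 16.6%.

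Coverage was very uneven along it. The median over the region lay between 64358 crossing reads in the CMC library of HIV RT and 192064 in its mock library. Coverage sank to a trough in all 6 libraries at the same place. The lowest counts before the last stop were 1792 (4806) and 2942 (4808) with HIV RT, 2205 and 1255 (both 4807) with SuperScript III and manganese, and 2178 (4807) and 1086 (4808) with magnesium, each given as CMC and then mock. These lows were between 0.794% and 3.30% of the same library's median over 28S. A total of 56 positions, 4782 to 4837, lay under 20000 reads in all 6 libraries, and 87 positions, 4772 to 4858, did so in at least 1. The window 4801 to 4850 is 92% G+C, while the 50 nt from U5001 on are 52% and was covered at 160% to 224% of the 28S median. The part of base composition in the coverage was not tested.

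**Figure D1:**
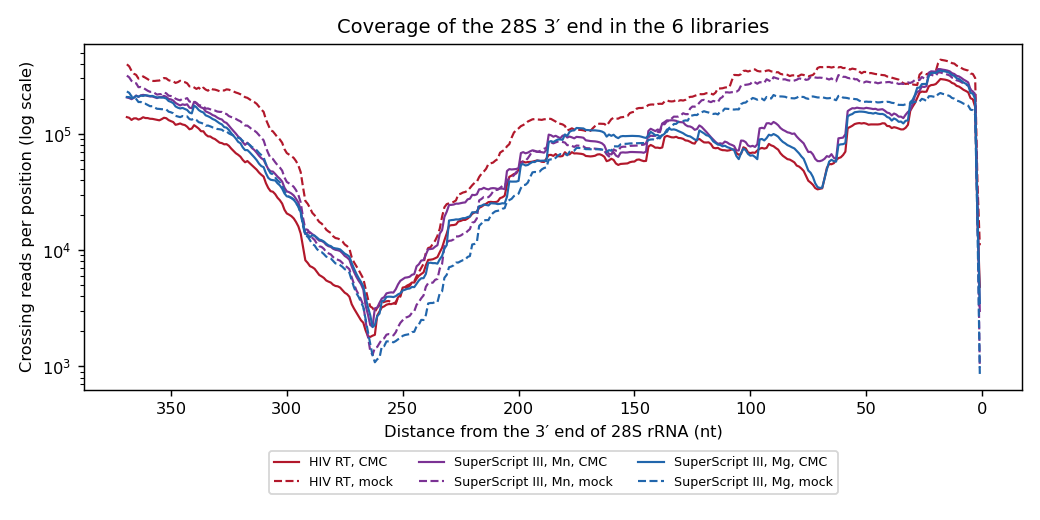
Crossing reads per position (log scale) against the distance from the 28S 3′ end, one line per library, solid for CMC and broken for mock. All 6 lines share a trough about 260 nt from the end, and only the 3 CMC lines dip again about 70 nt from it, near Ψ5001, U5006 and Ψ5010.

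A stop is taken here as booked at the first template base that was not copied. In the counts, a read stopped at position 1 first counts as crossing at position 3, not at position 2. Position 2 is taken as the base copied last, but the counts alone cannot show which base that was. The last stop lay at 5052, 18 nt from the end, in all 6 libraries, so the last 18 positions can show no stop, and 5 of the 53 U lie there. Shares are percentages: the mutation share is the reads with another base over all crossing reads, and the stop share is the stops over stops plus crossing reads. Differences are CMC minus mock, in percentage points (points). A position was called with an adjusted p under 0.05 (two-sided Fisher's exact test, adjusted after Benjamini and Hochberg across every position tested in 18S and 28S) and a difference of at least 5 points. Intervals in parentheses are 95% intervals that cover counting error only, and reads amplified by PCR with no molecular identifier need not be independent molecules.

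Among the 3 listed sites, Ψ5010 stopped the enzymes most and almost equally in the 3 conditions. Its stop share was 39.4% with CMC (39.2 to 39.7) and 3.40% in mock with HIV RT. With SuperScript III the shares were 39.3% and 2.79% with manganese, and 42.2% and 3.61% with magnesium. The differences, 36.0, 36.5 and 38.6 points, were the largest among the 53 U of the region in each condition. Those of HIV RT and manganese lay 0.465 points apart (95% interval −0.854 to −0.0758 for HIV RT minus manganese), and HIV RT lay 2.55 points under magnesium. The mutation rise at Ψ5010 was largest with HIV RT and smallest with magnesium, an order that the median U of the region shared. The mutation share was 3.62% against 0.484% with HIV RT, 1.51% against 0.0666% with manganese and 0.155% against 0.0337% with magnesium, CMC against mock, and no rise reached 5 points. By mutation difference Ψ5010 held ranks 7, 14 and 28 among the 53 U. C was the commonest of the wrong bases after CMC in all 3 conditions, at 73.3%, 82.9% and 73.8% of mismatches. It was already the commonest in mock, at 40.9%, 60.7% and 58.0%.

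Ψ5001 was the listed site with the most mutations. The mutation share after CMC was 13.0% with HIV RT (12.7 to 13.4), 7.85% with manganese and 3.12% with magnesium, against 0.550%, 0.161% and 0.159% in mock. The differences of 12.5 and 7.69 points were called in the first 2 conditions, and the difference of 2.96 points with magnesium was not. They held ranks 1, 2 and 3 among the 53 U. Reads with C made up 86.0%, 77.8% and 84.1% of the mismatches after CMC and 56.8%, 56.7% and 43.9% in mock. With HIV RT 11.2% of all crossing reads at Ψ5001 carried C after CMC. The stop share of Ψ5001 rose from 2.23% to 25.8% with HIV RT, from 2.32% to 9.29% with manganese and from 1.70% to 22.6% with magnesium. The rise with manganese, 6.97 points, was 16.6 points smaller than with HIV RT (16.2 to 17.1) and 13.9 points smaller than with magnesium. The stop rise was 1.89 times the mutation rise with HIV RT, 0.906 times with manganese and 7.05 times with magnesium.

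Stops also rose at the neighbours of Ψ5001. At G5000, just 5′ of it, the stop difference was 18.1 points with HIV RT and 19.1 with magnesium, both called, and 4.94 with manganese, under the bar of 5. At U5002, just 3′ of it, the differences were 10.4, 3.13 and 16.7 points for HIV RT, manganese and magnesium, and at U5003 they were 1.85, 4.20 and 3.56. The stops thus covered more than a single base in the run of U that begins at Ψ5001. Reads that stopped at G5000 do not count as crossing Ψ5001, so they are absent from its stop share. In the CMC libraries the crossing reads at Ψ5001 were only 0.484, 0.596 and 0.414 times those at 5011, on the side the enzyme comes from, against 1.02, 0.981 and 1.01 times in the mock libraries. Reads that stopped at Ψ5010 do not count as crossing 5011, so this comparison leaves out the stops at Ψ5010. Between Ψ5001 and 5011 lie U5002 and U5006, among other positions. Their stop shares after CMC were 12.9%, 4.03% and 19.5% at U5002 and 7.24%, 35.7% and 29.9% at U5006 for HIV RT, manganese and magnesium. The part of each site in this loss of reads was not tested.

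Ψ4972 separated HIV RT from SuperScript III. Its stop share rose from 1.31% to 7.12% with HIV RT, from 5.01% to 29.7% with manganese and from 4.16% to 33.1% with magnesium. All 3 rises, 5.81, 24.7 and 28.9 points, were called. Centred on the median of all U, the rise with HIV RT was 2.58 points and was no longer called. Among the 53 U it held rank 17 by stop difference with HIV RT and rank 2 in both SuperScript III conditions. The rise with HIV RT was 18.9 points smaller than with manganese (18.5 to 19.2 smaller) and 23.1 points smaller than with magnesium. The base before it, A4971, rose by 7.88 points with HIV RT and 7.75 with manganese, both called, and its difference was −0.224 with magnesium. With HIV RT the stop rise at A4971 was therefore larger than the one at the listed site. Mutation at Ψ4972 stayed low, at 2.85% against 0.931% with HIV RT, 0.733% against 0.0274% with manganese and 0.174% against 0.0244% with magnesium. By mutation difference Ψ4972 held ranks 9, 25 and 23 among the 53 U. A was the commonest wrong base after CMC with HIV RT (50.9% of mismatches) and with manganese (79.6%), whereas C was with magnesium (51.8%, of 110 mismatched reads). In mock C was the commonest in all 3 conditions (40.4%, 61.8% and 61.2%). With magnesium A rose from 12.2% of mismatches in mock, of only 49 mismatched reads, to 34.5% after CMC. In mock A made up 38.4% with HIV RT and 23.7% with manganese (of 76 mismatched reads), so its part rose in all 3 conditions.

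**Figure D2:**
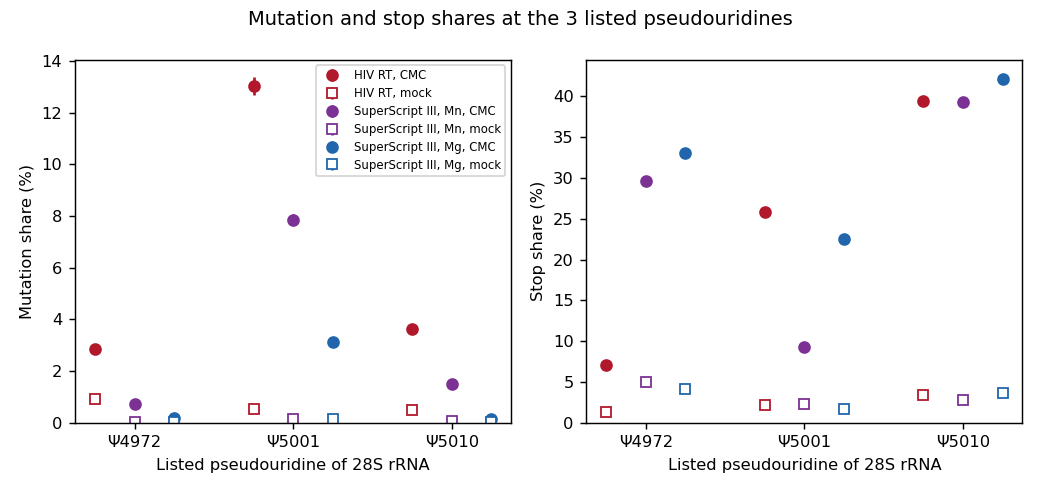
Mutation share (left) and stop share (right) in percent at the 3 listed Ψ, 1 point per library, filled for CMC and open for mock, with bars for the 95% Wilson interval (mostly smaller than the points). Ψ5001 has the highest mutation share in every condition, up to 13.0%, and Ψ5010 the highest stop share, between 39.3% and 42.2%.

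**Figure D3:**
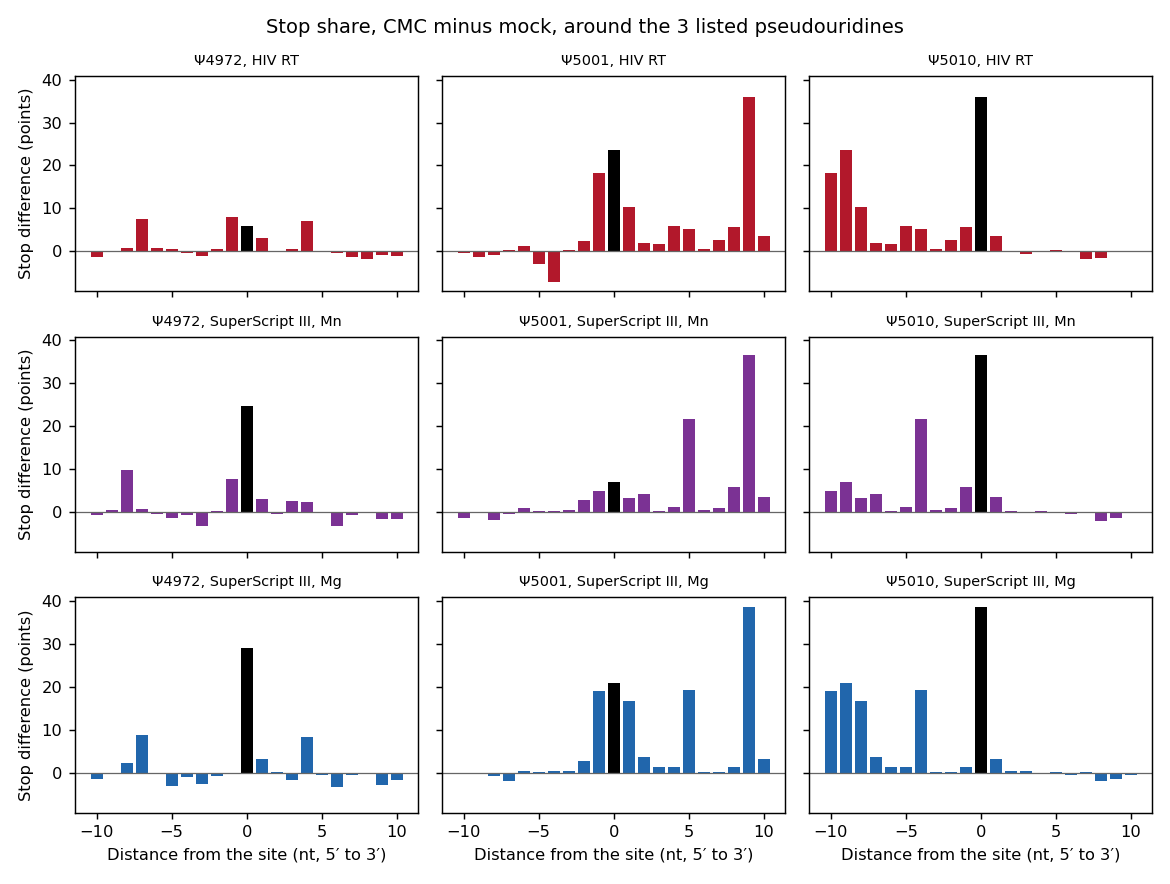
Difference in stop share, CMC minus mock in points, for 10 positions on each side of the 3 listed Ψ, with the site itself in black, 1 row per copying condition. The panels for Ψ5001 and Ψ5010 overlap, since these sites lie 9 nt apart, and the bar 4 nt 5′ of Ψ5010 is U5006.

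Over the region, mutation calls were few. Mutation rose at 2 of 369 positions with HIV RT (1.05% of all tested positions of both rRNAs did so), at 2 with manganese (1.29%) and at 1 with magnesium (0.159%). Ψ5001 was called with HIV RT and manganese, U5069 with manganese and magnesium, and C4806 with HIV RT. Mutation fell by 5 points or more at 0 positions in each condition, while 0.101%, 0.332% and 0.0868% of all tested positions did so. At 50, 51 and 52 of the 53 U the mutation share was higher with CMC, mostly by little. The median difference at U was 0.993, 0.628 and 0.123 points in the same order, and over all U of both rRNAs it was 0.955, 0.770 and 0.137.

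Stop calls were many more. Stops rose at 38 of 369 positions with HIV RT (10.1% of all tested positions did so), at 24 with manganese (8.38%) and at 25 with magnesium (9.22%). They fell at 16 (3.66%), 5 (1.98%) and 7 (1.84%). The rises made up 10.3%, 6.504% and 6.78% of the tested positions of the region, close to the share of all positions with HIV RT and below it with SuperScript III. Centring each difference on the median of its base over both rRNAs left 17 rises and 8 falls with magnesium, so that 68.0% of the calls were rises in place of 78.1%.

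The 3 conditions divided the rises by base in different ways. Of the 25 rises with magnesium, 23 were at U. Of the 38 with HIV RT, 18 were at U, and of the 24 with manganese, 12 were. Over both rRNAs 435 of 698 rises were at U with HIV RT, 303 of 580 with manganese and 505 of 637 with magnesium. Among all U of both rRNAs 37.7%, 26.3% and 43.8% were called as rises with HIV RT, manganese and magnesium. Among the 53 U of the region the shares were 34.0%, 22.6% and 43.4%. The median stop difference at the 53 U was 1.85, 0.316 and 4.05 points in that order. It was 3.23, 1.40 and 3.99 points over all U of both rRNAs. Over the 48 U up to the last stop the medians became 2.51, 1.25 and 4.20 points. Over both rRNAs without the U past the last stop they were 3.28, 1.41 and 4.03 points.

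Stops rose in all 3 conditions at 12 positions, of which 11 were U, in 2 conditions at 16 and in 1 at 19. The other position of the 12 was C4806, in the trough. The matching counts over both rRNAs are not given here. Without the U past the last stop, 37.5% of U rose in the region against 37.9% over both rRNAs with HIV RT. The shares were 25.0% against 26.4% with manganese and 47.9% against 44.0% with magnesium, higher in the region only in the latter. Besides the 3 listed sites the U that rose in all 3 conditions were 4728, 4838, 4869, 4881, 5006, 5037, 5039 and 5040, none of them on the list of Ψ. With differences centred by base, 7 positions rose in all 3 conditions, of which 6 were U: U4728, U4838, U4869, Ψ5001, Ψ5010 and U5040. No position rose in one condition and fell in another. U5037 had the third largest mean rise, after Ψ5010 and Ψ4972, with stop shares of 28.8% against 2.63% with HIV RT, 9.33% against 3.90% with manganese and 33.5% against 6.09% with magnesium. As at Ψ5001, the rise was smaller with manganese, 5.44 points (5.28 to 5.60), than with magnesium, 27.4 points (27.2 to 27.7). It lies in the 3′ end shown here with every U in capitals.
28S U5030 to C5070: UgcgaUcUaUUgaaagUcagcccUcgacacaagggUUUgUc
Of the other U on this line, 5039 and 5040 rose by 7.01 and 9.67 points with HIV RT, 12.2 and 8.73 with manganese, and 8.58 and 10.9 with magnesium.

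U4838 lies in the G+C-rich stretch, within 21 nt of 90.5% G+C, shown with the U in capitals.
28S 4828 to 4848: ggagggcgcgUgccccgccgc
Its stop share was 16.5% against 2.06% with HIV RT, 14.1% against 3.77% with manganese and 40.4% against 15.1% with magnesium. The crossing reads behind these shares numbered between 5782 and 23359. U4869 rose by 11.1, 14.6 and 17.4 points, U4881 by 7.24, 16.4 and 17.9 points, and U4728, outside the trough, by 9.06, 10.1 and 12.1 points.

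The region holds 3 GUA triplets, and only the U of the last is a listed Ψ. The middle one, U5006, rose by 21.7 and 19.2 points with SuperScript III (manganese, magnesium) and by 5.16 with HIV RT. Its stop share rose from 2.08% to 7.24% with HIV RT, from 14.0% to 35.7% with manganese and from 10.7% to 29.9% with magnesium. Unlike Ψ5010, U5006 already had a mock stop share above 10% in both SuperScript III libraries. The first, U4976, differed by 7.09 points with HIV RT and 8.36 with magnesium, both called, and by 2.28 with manganese.

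**Figure D4:**
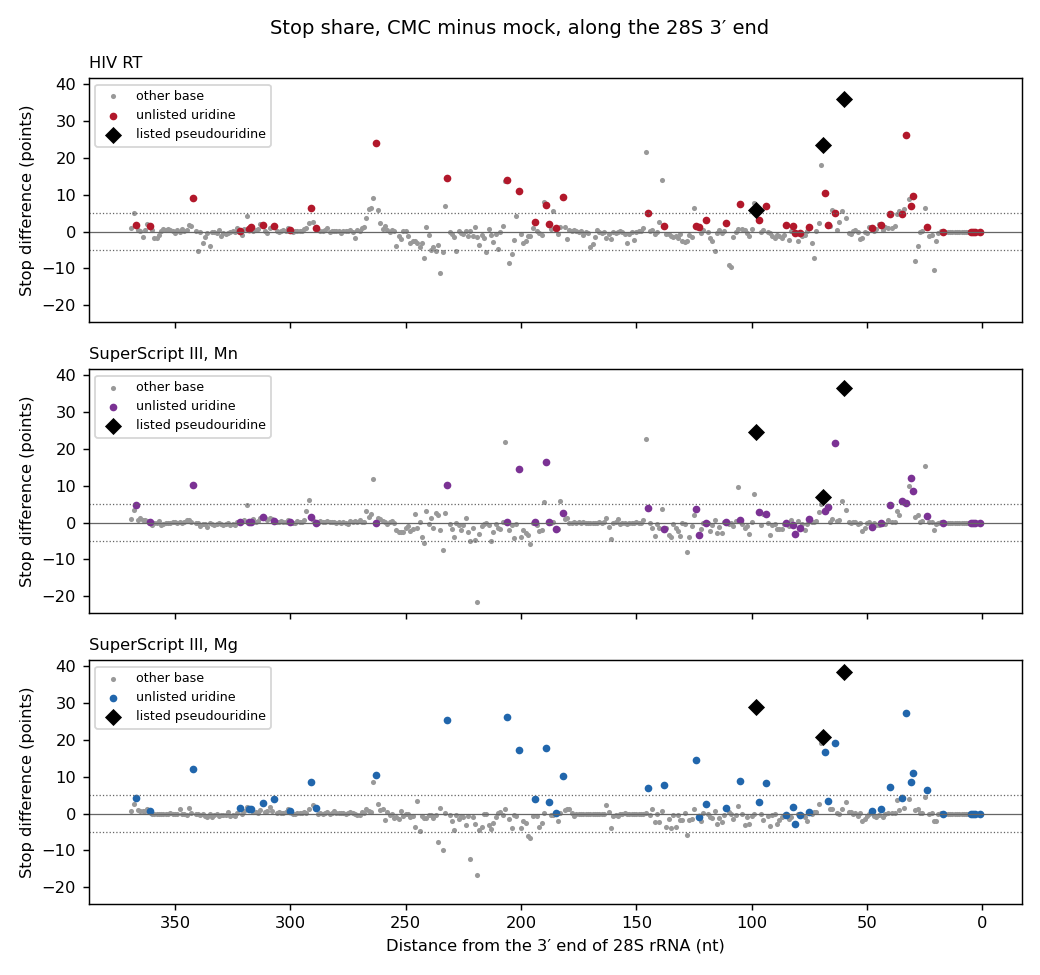
Difference in stop share, CMC minus mock in points, at each position against the distance from the 28S 3′ end, 1 panel per copying condition, with listed Ψ as black diamonds, other U in colour, other bases in grey and dotted lines at 5 and −5 points. The magnesium panel has its high points almost only at U, whereas HIV RT and manganese also have high grey points, such as C4924 about 146 nt from the end.

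The calls at other bases were not spread evenly. With HIV RT 20 of the rises were at A, C or G, and 17 of these 20 lay immediately 5′ of a U. With manganese 12 of 12 did and with magnesium 2 of 2, while only 13.6% of the 316 tested A, C and G of the region have a U next to them on that side. This pattern was noticed in these data and is given as a description. Over both rRNAs the same held for 215 of 263 such rises with HIV RT, 196 of 277 with manganese and 83 of 132 with magnesium, against about 15.6% of A, C and G.

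The pattern was smaller with magnesium. Over the 40 U of the region that can show a stop and follow another base, the mean stop difference was 6.44 points at the U and 4.57 at its 5′ neighbour with HIV RT. With manganese the means were 4.72 and 3.999, and with magnesium 9.13 and 1.32. The neighbour took 41.5%, 45.9% and 12.6% of the 2 means together, and it exceeded its U at 19, 18 and 5 of the 40. At the base 3′ of a U the mean difference was between −0.0968 and 0.310 points. With stops booked so, HIV RT and manganese thus also had added stops at the base after the U in the direction of copying. The same SuperScript III enzyme with magnesium had most of them at the U. Because a read does not count as crossing the base just 3′ of its stop, a read that stops just 5′ of a U adds nothing to the mutation share at that U. Such a read is also absent from the stop share of that U.

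**Figure D5:**
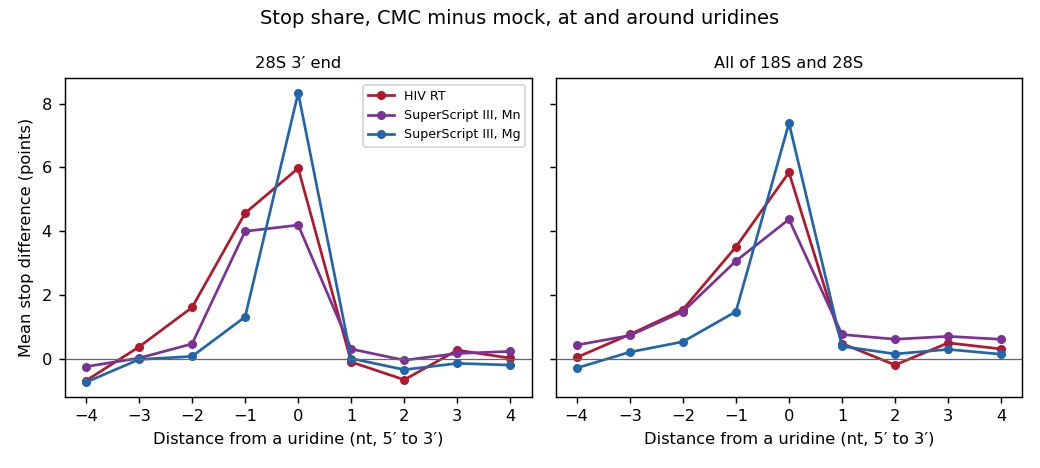
Mean difference in stop share, CMC minus mock in points, at positions 4 nt 5′ to 4 nt 3′ of a U (bases other than U only, except at 0), 1 line per copying condition, for the 28S 3′ end (left) and both rRNAs (right). The lines for HIV RT and manganese have a shoulder at −1, with means of 4.57 and 3.999 points on the left, and the line for magnesium has 1.32 there.

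The clearest pairs were 4924 with 4925 and 4863 with 4864, shown with both bases of each pair in capitals.
28S 4915 to 4935: ggccgccccCUcgcccgucac
28S 4854 to 4874: gggaccgggGUccggugcgga
At C4924 the stop share rose from 4.31% to 25.9% with HIV RT and from 11.8% to 34.6% with manganese, and it was 6.00% in mock and 6.08% with CMC in magnesium. At U4925 the differences were only 4.99 and 3.87 points in the first 2 conditions, and 6.89 in magnesium, where it was called. The pair of G4863 and U4864 divided the same way in SuperScript III. With manganese G4863 rose from 9.31% to 31.1% while U4864 stood at 7.25% and 7.32%, and with magnesium U4864 rose from 3.86% to 30.1% while G4863 stood at 12.8% and 14.0%. With HIV RT both rose, by 13.7 and 14.0 points. G5045 before U5046 (6.48, 15.3 and 4.56 points at the G for HIV RT, manganese and magnesium, and 1.23, 1.90 and 6.45 at the U) was another such pair.

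The base 3′ of a U, which the enzyme copies just before it, went with different stop differences. For the 7 U before A, the medians were 7.51, 5.44 and 12.1 points (HIV RT, manganese, magnesium). For the 21 U before C that can show a stop, it was 1.41, 0.130 and 2.99 points. The 12 U before G had 3.86, 0.888 and 5.62 points, and the 8 before U had 6.41, 5.40 and 15.7. U before C was thus lowest in all 3 conditions, although single U of that kind reached 24.0 points with HIV RT and 26.2 with magnesium. The listed Ψ lie in the groups before A (Ψ5010) and before U (Ψ4972 and Ψ5001).

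Falls were fewer, and 0 of them were at U. The matching count at U over both rRNAs is not given here. There the stop difference at single U before C went down to −6.36, −17.0 and −5.78 points with HIV RT, manganese and magnesium. C4836 fell in all 3 conditions, by 5.40, 7.51 and 9.85 points, from the mock stop shares of 21.1%, 32.3% and 24.9%. G4835 next to it fell from 26.5% to 15.1% with HIV RT. G4851 fell from 31.7% to 10.2% with manganese and from 28.6% to 11.8% with magnesium, and C4848 from 21.1% to 8.64% with magnesium. These 4 positions lie at or just past the 3′ edge of the coverage trough, and their mock stop shares were high. Elsewhere, G5049 fell from 15.8% to 5.39% and G4961 from 12.9% to 3.24% with HIV RT, and C4942 fell from 11.98% to 3.95% with manganese. Requiring 20000 crossing reads left 10, 2 and 3 falls for HIV RT, manganese and magnesium.

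Some positions differed from the deposited sequence without CMC. At 4910 the deposited base is G, and 99.6%, 99.9% and 99.97% of mock reads had another base with HIV RT, manganese and magnesium. The base read was A, in 99.9% of mock reads with magnesium (G4910A), and the share was the same within 0.180 points after CMC. It was 1 of only 2 positions of both rRNAs with a mock mutation share of at least 99% with HIV RT. The position is in capitals here.
28S 4900 to 4920: cgcggccggaGaggcggccgc
Neither treatment nor enzyme moved this value by much.

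A second place lay in the trough, at the end of the longest run of 1 base in the region, 9 C from 4798 to 4806. The 2 positions concerned, 4806 and 4807, are in capitals.
28S 4794 to 4866: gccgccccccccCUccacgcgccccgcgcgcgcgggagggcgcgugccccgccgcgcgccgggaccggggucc
In the mock libraries C4806 was read as another base in 17.7%, 23.7% and 41.3% of reads with HIV RT, manganese and magnesium, mostly as U (C4806U). U4807 was so in 14.9%, 19.7% and 37.0%, mostly as C (U4807C). Both mock shares were thus highest with SuperScript III and magnesium, whose median mock mutation share over the region, 0.0798%, was the lowest of the 3. The mock counts behind them were between 1250 and 3282 reads. A4810 followed with 10.3%, 8.83% and 12.8%, mostly G. The mutation rise called at C4806 with HIV RT, 6.52 points, stands beside differences of −4.59 points with manganese and 1.07 with magnesium, at 1792 and 3282 reads.

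The last tested position, U5069, had the other mutation calls. Its mutation share was 6.39% against 1.44% with HIV RT, 10.996% against 2.17% with manganese and 13.2% against 2.90% with magnesium, CMC against mock. A was the base read in 84.8%, 86.1% and 86.6% of the mismatches after CMC. The mock libraries of manganese and magnesium had only 969 and 862 reads there, and the position is the last but one of the molecule, past the last stop. With a minimum of 1000 reads it was not tested, and 1 mutation rise with manganese and 0 with magnesium were left.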

How the data were processed

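RNA over 200 nt was fragmented, treated, end-repaired, ligated, reverse transcribed, circularised, amplified and sequenced, per the labels' protocols. Reads went through Trimmomatic 0.32 and Bowtie 1.0, per the submitters' processing notes. Settings, the counting program and the origin of the reference sequence were not given in the sources used here. The HIV RT tables carry another name than the SuperScript III tables, and whether their processing differed is not given. Per the file headers, the authors deposited for each position the counts of crossing reads in all and by base, the stops as whole-number counts, and a mismatch rate and stop frequency as a fraction from 0 to 1. Other normalization was not applied. Depth was 21206954 to 47002169 stops per library over both rRNAs.

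Shares were recomputed from the deposited counts with Python 3.11.15, numpy 2.4.6, pandas 2.3.3 and scipy 1.17.1. Single shares have 95% Wilson intervals and differences Newcombe intervals. Calls used the two-sided Fisher's exact test described above; calling was checked on simulated data. How stops and crossing reads fit together was checked on the counts at 352 positions in each of 6 tables. That a stop is booked at the first base not copied was assumed, since the counts cannot show which base was copied last. There is 1 library per group, so no test across samples was made. Positions named were the listed sites with 5 neighbours on each side, the 5 largest rises and 3 largest falls called per condition and measure, rises in all 3 conditions, positions of mock mutation share of at least 5% or mock stop share of at least 20% in all 3 conditions or highest in one, positions called for both measures in a condition, and the coverage extremes. U4925 and U5046 fall outside this rule and were named after their values were seen. The members, the list and these rules were chosen with earlier results of these data known. Alternatives were other size bars, a ratio, coverage minimums, centring by base, pooled reads and stops summed over neighbours.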

Additional observations from a re-analysis of the deposited data

How the results depend on the processing

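Counts below are given for HIV RT, manganese and magnesium in that order. With a bar of 2 points in place of 5, mutation rose at 9, 12 and 2 positions and fell at 5 and 4 in the first 2 conditions, and stops rose at 59, 50 and 45 and fell at 47, 41 and 37. With a bar of 10 points mutation rose at 1 and 0 in the first 2, and stops rose at 12, 12 and 16 and fell at 2, 1 and 2. A ratio of at least 2 in place of the bar gave 77, 145 and 128 mutation rises, 32, 12 and 7 mutation falls, 84, 58 and 70 stop rises, and 40, 42 and 45 stop falls. A minimum of 1000 reads left 1 mutation rise with manganese and 0 with magnesium, and a median stop difference at U of 0.538 points with manganese. Pooled reads over U gave mutation differences of 1.202, 0.892 and 0.219 points and stop differences of 4.71, 3.83 and 6.78. Without the listed Ψ the median stop difference with magnesium was 3.37 points. Centring by base turned the mutation difference at Ψ4972 with manganese to −0.0644 points and at Ψ5010 with magnesium to −0.0162, and took the stop rise at Ψ4972 with HIV RT to 2.58 points, under the bar; the cause was not tested. The other 15 values at the listed Ψ kept direction and call under centring. With the stops of both neighbours added, all 9 stop differences there stayed above 5 points. No new test was made on these sums, which hold the stops of the site itself. The remaining alternatives were chosen after seeing the data. A minimum of 20000 reads left 1, 1 and 0 mutation rises and 10, 2 and 3 stop falls. Without the positions past the last stop, 1 mutation rise with manganese and 0 with magnesium were left, and the median stop differences were 2.51 points with HIV RT and 1.25 with manganese. With only the stops of the 5′ neighbour added, all 9 stop differences at the listed Ψ also stayed above 5 points, again without a new test. Depth limits the trough at 4782 to 4837 and U5069, with 862 reads in its shallowest library. No paired analysis was possible because there is 1 library per group.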
